A study of Mus musculus with 28 samples.

Results

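The regions described here are the called peaks of 5-hydroxymethylcytosine (5hmC) and 5-methylcytosine (5mC) in the first 2 Mb of each of the 19 mouse autosomes, next to the centromere. Peaks of the 6 5hmC libraries that overlapped by at least 1 bp were merged into regions, and the peaks of the 5 5mC libraries were merged apart from them. Regions that start below position 5000000 on an autosome were taken, and the mm9 assembly of each autosome begins at position 3000000. This gave 2998 of 206417 5hmC regions and 2688 of 218122 5mC regions. The choice uses position only and no measured level.

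The cells are bone marrow cells with the label LK, purified from C57BL/6 mice aged 6 to 10 weeks. The double knockout (DKO) lacks Tet1 and Tet2 and had 2 5hmC and 2 5mC libraries, the Tet2 knockout (Tet2KO, Tet2-/-) had 2 5hmC libraries and 1 5mC library, and the wild type (WT) had 2 of each. No label names the alleles or says whether a genotype's libraries stem from different animals. The p-values therefore reflect only variation among these libraries, which could be technical. The LK label was not checked against expression, since the 17 RNA samples of the series were not analysed here.

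Mouse autosomes are telocentric: the centromere lies at 1 end, and the assembled sequence begins beside long arrays of satellite repeats that are largely missing from the assembly. Those arrays are a classic site of dense cytosine methylation. TET1 and TET2 are enzymes that convert 5mC into 5hmC, and TET2 is often mutated in human blood malignancies. DNA with 5hmC was pulled out after chemical tagging (hMe-Seal), and DNA with 5mC by an antibody (MeDIP-seq). Both report where enrichment passed the caller's threshold, not the share of modified cytosines.

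The 11 libraries held 120243 to 147934 peaks each. In the first 2 Mb of the autosomes, which come to 38.0 Mb in all, the DKO libraries had 1923 and 2086 5hmC peaks, the Tet2KO libraries 1960 and 2003, and the WT libraries 1802 and 1896. For 5mC the DKO libraries had 1860 and 1448 peaks there, the Tet2KO library 1690, and the WT libraries 1580 and 1741. Read depth is unknown, so numbers and widths of peaks may differ between libraries through depth.

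The members were made up much like all regions. Of the 2998 5hmC regions, 868 (29.0%) had a peak in all 6 libraries, against 29.9% of all 5hmC regions, and 782 (26.1%) had one in a single library, against 25.8%. Of the 2688 5mC regions, 865 (32.2%) had a peak in all 5 libraries, against 32.3%, and 831 (30.9%) in a single library, against 30.4%. Their median width was 703 bp for 5hmC and 328.5 bp for 5mC, against 721 bp and 341 bp over all regions. At the boundary, the last 5hmC region inside lay on chromosome 6 at 4999742 to 5000445 (704 bp, 5 libraries) and the first outside on chromosome 18 at 5000697 to 5001027 (331 bp, 2 libraries). The last 5mC region inside was 274 bp wide, on chromosome 18 at 4999548 to 4999821, and the first outside was 251 bp wide, on chromosome 18 at 5000196 to 5000446, each in 1 library.

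Both marks covered less of the first 2 Mb than of the rest of the autosomes. 5hmC peaks covered 4.10% and 3.95% of the first 2 Mb in the DKO libraries, 3.81% and 3.65% in the Tet2KO libraries and 3.99% and 3.91% in WT libraries. On the rest they covered 4.55% and 4.37% in DKO, 4.19% and 4.07% in Tet2KO and 4.62% and 4.52% in WT, so that all 6 libraries were lower at the centromeric end. The ratio of the first 2 Mb to the rest was 0.889 on average (log2 -0.17 ± 0.032 SD, n = 6 libraries; exact two-sided sign-flip test, p = 0.03125, the smallest that 6 libraries allow; adjusted p = 0.0813 over 13 tests). 5mC peaks covered 1.53% and 1.401% of the first 2 Mb in the DKO libraries, 1.48% in the Tet2KO library and 1.48% and 1.47% in WT libraries, against 1.85% and 1.79% (DKO), 1.86% (Tet2KO) and 1.83% and 1.81% (WT) of the rest. The 5mC ratio was 0.804 (log2 -0.32 ± 0.030 SD, n = 5 libraries; exact sign-flip p = 0.0625, again the smallest possible; adjusted p = 0.108). Neither ratio passed after adjustment, although no library went the other way.

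The 2 marks differed in how much lower they were. The 5hmC ratios of the 6 libraries (0.863 to 0.909) all lay above the 5mC ratios of the 5 libraries (0.782 to 0.824), a difference of 0.15 on the log2 scale (exact permutation p = 0.00216, the smallest of 462 splits; adjusted p = 0.0281). The sign depended on the score minimum. Among peaks scoring 100 or more on the authors' own value per peak, the difference was 0.05 (exact permutation p = 0.208), and among those scoring 200 or more it was -0.12 (p = 0.00433, exact). The comparison is between assays with different peak widths, and what assay and mark each contribute cannot be told apart.

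The opposite ends of the chromosomes gave another order. In the last 2 Mb, 5hmC covered 4.04% and 3.69% in the DKO libraries, 3.58% and 3.62% in the Tet2KO libraries and 3.77% and 3.74% in WT libraries. The first 2 Mb was 1.04-fold the last 2 Mb for 5hmC (log2 0.06 ± 0.036 SD, n = 6; exact sign-flip p = 0.03125, adjusted p = 0.0813), and 0.817-fold for 5mC (log2 -0.29 ± 0.023 SD, n = 5; exact sign-flip p = 0.0625, adjusted p = 0.108). A window of another length turned both directions: with the first and last 4 Mb (to position 7000000), the 5hmC value was -0.51, and with 1 Mb (to position 4000000), the 5mC value was 0.13. 5hmC peaks of the first 2 Mb were also slightly narrower, with a median of 686 and 608 bp in the DKO libraries, 627 and 591 bp in the Tet2KO libraries and 702 and 660 bp in WT libraries, against 706 and 624 bp (DKO), 634 and 599 bp (Tet2KO) and 729 and 682 bp (WT) in the rest (0.975-fold; exact sign-flip p = 0.03125, adjusted p = 0.0813, n = 6). The 5mC widths were 0.989-fold (exact sign-flip p = 0.125, adjusted p = 0.181, n = 5).

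The average hides large differences between chromosomes. 5hmC coverage of the first 2 Mb was highest on chromosome 19, at 12.2% ± 0.653 (SD, n = 6 libraries), against 5.96% ± 0.256 on the rest of that chromosome. Chromosome 11 followed with 10.8% ± 0.610, against 7.17%, then chromosome 2 with 8.22% ± 0.610, against 4.31%, chromosome 12 with 7.50% ± 0.327, against 3.60%, and chromosome 16 with 7.11% ± 0.271, against 3.91%. These chromosomes stood in this order in each of the 6 libraries, although chromosomes 2 and 12 were close in Tet2KO 2 (7.22% and 7.17%). On chromosome 7 the first 2 Mb had 5.90% ± 0.399, against 4.13%. On these 6 chromosomes every library was above its own level on the rest of the chromosome.

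At the other extreme, the starts of chromosomes 3 and 14 held no 5hmC peak in any of the 6 libraries. The rest of those chromosomes was covered to 3.10% and 3.09%. Chromosome 1 had 0.316% ± 0.0887, against 3.31%, chromosome 15 had 0.503% ± 0.144, against 5.11%, and chromosome 9 had 0.607% ± 0.302, against 4.57%. On 11 autosomes, those 5 included, all 6 libraries were lower in the first 2 Mb, and the mean was lower on 12 of 19. The 3 most covered starts held 42.2% of the length covered in the first 2 Mb. None of the 19 first windows was the most covered 2 Mb window of its chromosome, and on 11 the first window lay in the lower part of the ranking. With 29 to 97 windows per chromosome, any fixed window would seldom rank first. Neither count therefore sets the starts apart.

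5mC followed the same chromosomes. It was highest at the start of chromosome 19, with 4.34% ± 0.168 (SD, n = 5), against 2.32% on the rest, then on chromosome 11 with 3.68% ± 0.130, against 2.66%, and chromosome 7 with 3.21% ± 0.0747, against 1.82%. It was lowest on chromosome 14, with 0.00725% in the mean and no peak in DKO 2 or Tet2KO, against 1.29%, on chromosome 3 with 0.192%, against 1.26%, and on chromosome 1 with 0.317%, against 1.33%. All 5 libraries were lower in the first 2 Mb on 12 autosomes and higher on 5. Across the 19 chromosomes the covered percent of 5hmC and of 5mC had a Spearman rho of 0.933 in the first 2 Mb and 0.960 in the rest, as a description over chromosomes that share their libraries. On chromosomes 16, 5 and 8 the means of the 2 marks lay on opposite sides of the rest. The start of chromosome 16 was 1.82-fold the rest for 5hmC and 0.954-fold for 5mC, with 4 of 5 5mC libraries below the rest. That of chromosome 5 was 1.06-fold for 5hmC, with 2 of 6 libraries below the rest, and 0.519-fold for 5mC. Chromosome 8 went the other way, with 0.964-fold for 5hmC (4 of 6 libraries below the rest) and 1.05-fold for 5mC (1 of 5 below). The libraries were thus not all on the side of the mean where the ratio was near 1.

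**Figure D1:**
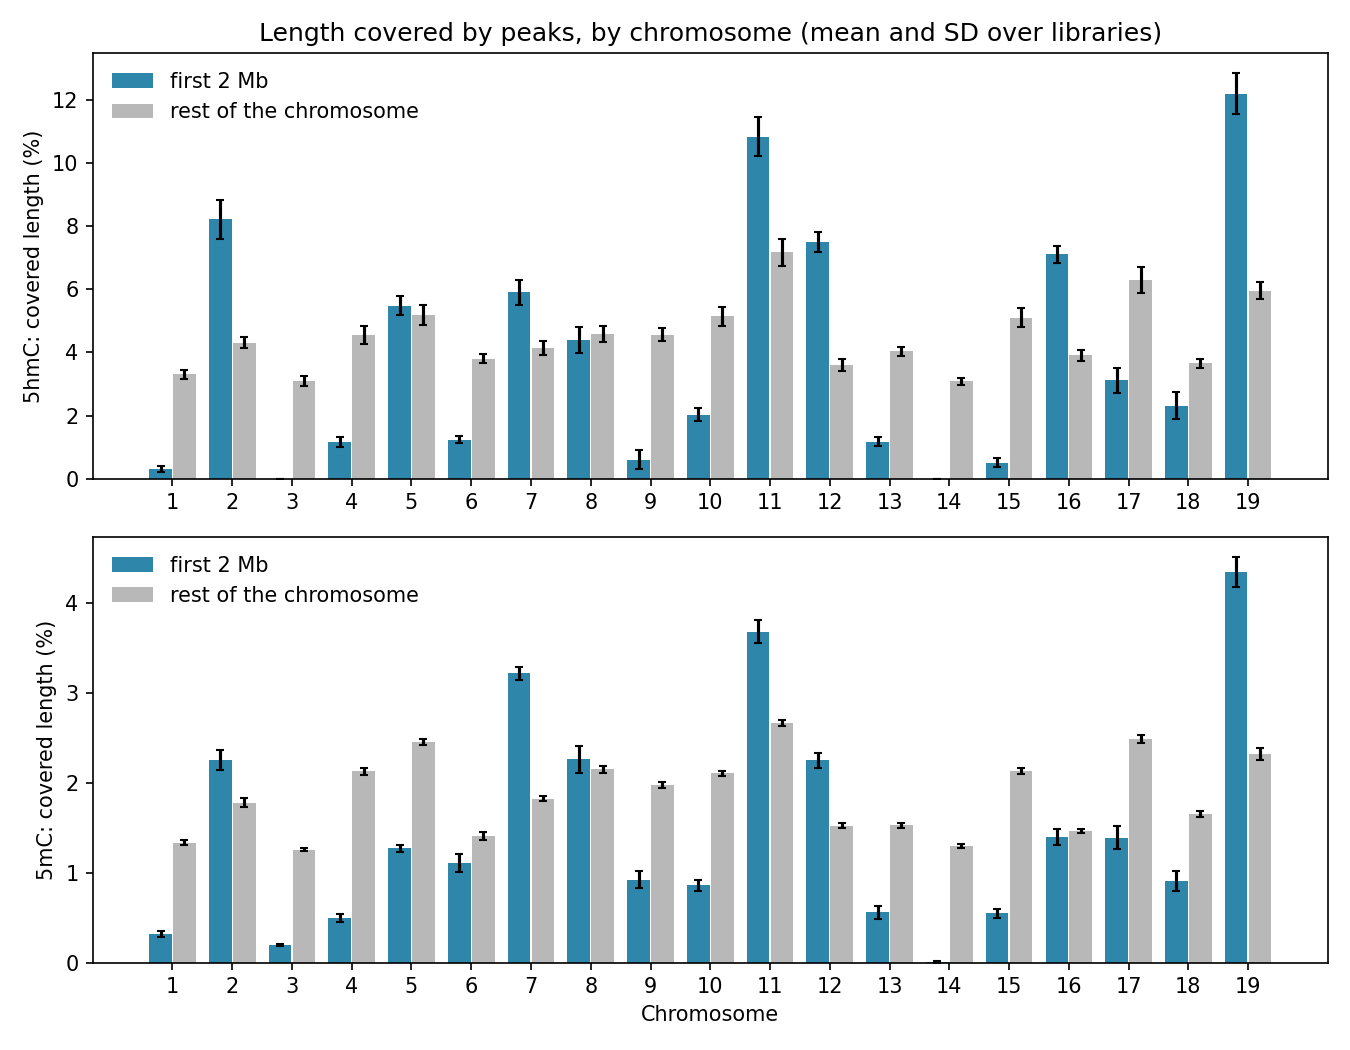
Percent of the first 2 Mb and of the rest of each autosome covered by 5hmC peaks (6 libraries) and 5mC peaks (5 libraries), by chromosome. Chromosomes 19 and 11 are the most covered starts for both marks, and chromosomes 3 and 14 hold no 5hmC peak there.

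Within the first 2 Mb, coverage did not fall steadily toward the centromere. 5hmC covered 1.08% of the first 100 kb on average over the libraries (0.586% to 1.72%), 1.72% of the next 100 kb and 4.17% of the third. It reached 6.55% at 600 to 700 kb (5.93% to 7.04%), was 2.03% at 700 to 800 kb and was 5.55% at 1900 to 2000 kb. 5mC covered 1.42% of the first 100 kb (1.36% to 1.45%), 0.922% of the next, 1.95% at 600 to 700 kb, 0.810% at 700 to 800 kb and 2.10% at 1900 to 2000 kb. In the mean over libraries the first 100 kb was the least covered step for 5hmC, although in Tet2KO 1 it had 1.72% and the next step 1.60%, while for 5mC the step at 700 to 800 kb was the least covered. Both marks had a high step at 600 to 700 kb and a low one directly after it. The high 5hmC step rested in part on 1 chromosome. On chromosome 2 the bin at 3600001 to 3700000 was covered to between 40.3% (Tet2KO 2) and 47.7% (DKO 1) by 5hmC.

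**Figure D2:**
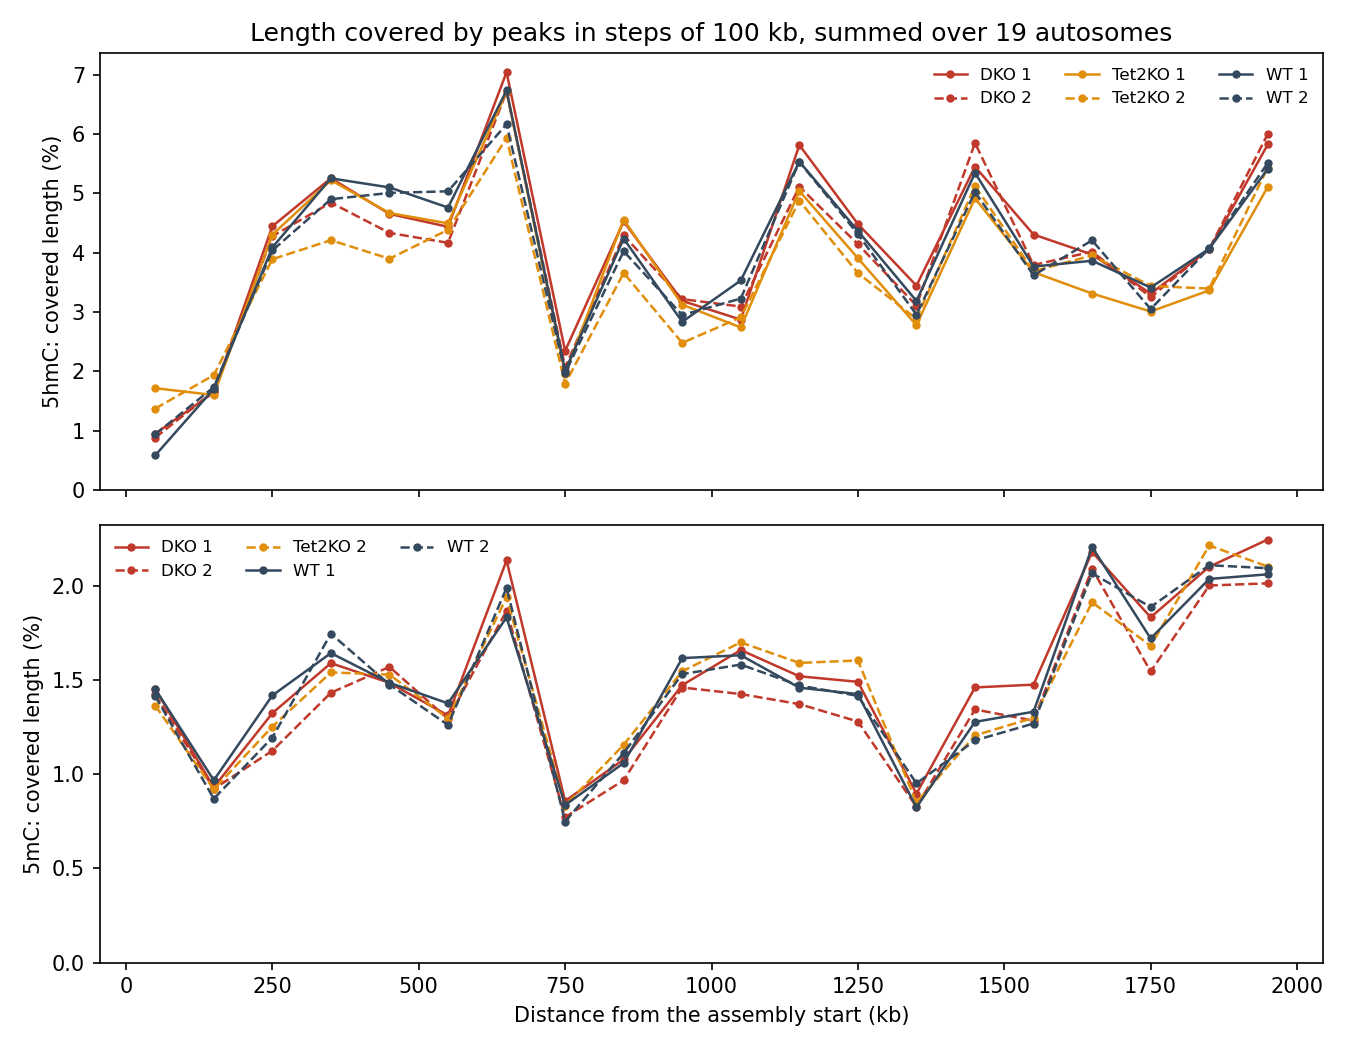
Percent of each 100 kb step covered by 5hmC and 5mC peaks, by distance from the start of the assembled sequence (kb), summed over the 19 autosomes. 5hmC is at 1.08% in the first step and at 6.55% at 600 to 700 kb, where chromosome 2 alone was covered to 40.3% to 47.7%.

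Very few chromosomes carried 5hmC in the first 100 kb. Peaks lay on 4 of the 19 (chromosomes 2, 9, 11 and 17), against 13 for 5mC. In this stretch 5hmC covered 18.1 and 16.8 kb in the DKO libraries, 32.6 and 26.1 kb in the Tet2KO libraries and 11.1 and 17.9 kb in WT libraries. Of this, chromosome 9 held 9.06 and 8.79 kb in the DKO libraries, 18.3 and 16.3 kb in the Tet2KO libraries and 3.27 and 11.9 kb in WT libraries. Both Tet2KO libraries were above all 4 others on chromosome 9, and the WT libraries were far apart. On the other 18 autosomes the values were 9.04 and 8.03 kb in the DKO libraries, 14.3 and 9.79 kb in the Tet2KO libraries and 7.86 and 5.94 kb in WT libraries. Tet2KO 1 stood above the rest there through a single region on chromosome 11, at 3030528 to 3038062 (7535 bp), which no other library had and which scored 80.4.

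The 5mC values of the first 100 kb were nearly level. They came to 27.6 and 27.0 kb in the DKO libraries, 25.9 kb in the Tet2KO library and 27.6 and 26.9 kb in WT libraries. Chromosome 9 held 13.0 and 15.1 kb in DKO, 11.25 kb in Tet2KO and 14.6 and 12.75 kb in WT. The single Tet2KO library was the lowest on chromosome 9, and without replicates it has no spread of its own.

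**Figure D3:**
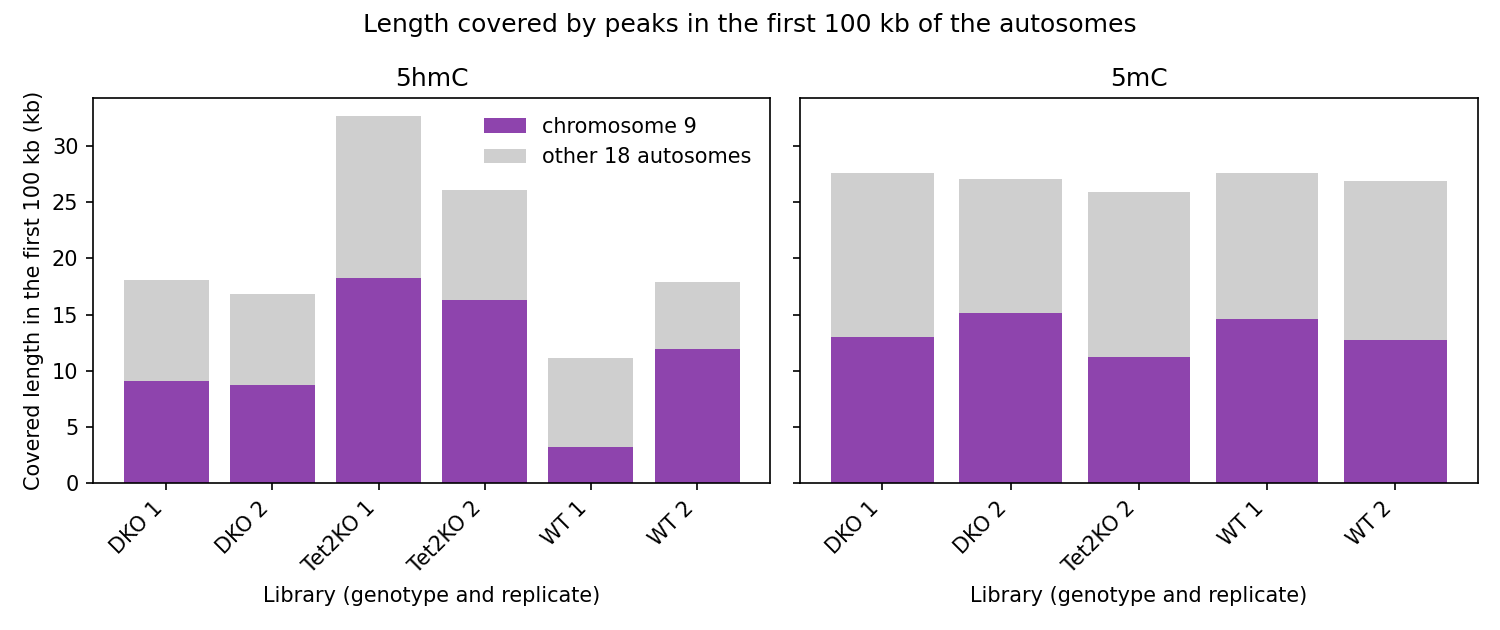
Kilobases covered by 5hmC peaks (6 libraries) and 5mC peaks (5 libraries) in the first 100 kb of chromosome 9 and of the other 18 autosomes, by library. 5hmC on chromosome 9 spans 3.27 kb in WT 1 to 18.3 kb in Tet2KO 1, while 5mC on chromosome 9 stays between 11.25 and 15.1 kb.

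The start of chromosome 9 was a compact block of both marks. Its 17 5hmC regions ran from the first assembled bases to position 3038530 and its 31 5mC regions to 3038458, after which the next 5hmC region began at 3335946 and the next 5mC region at 3144183. All 17 5hmC regions overlapped a 5mC region, and 26 of the 31 5mC regions overlapped 5hmC. Outside the first 2 Mb of the autosomes, 29.4% of 5hmC regions overlapped a 5mC region and 32.6% of 5mC regions overlapped 5hmC. Of the 31 5mC regions, 20 had a peak in all 5 libraries, which held for 32.3% of all 5mC regions. Of the 17 5hmC regions, 2 had a peak in all 6, which held for 29.9% of all 5hmC regions. WT 1 had peaks in only 2 regions of the block, so the 5hmC count could not be higher.

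The 5hmC regions of the block were called more often in Tet2KO than in DKO or WT libraries. Both DKO libraries had a peak in 8 regions and both Tet2KO libraries in 13, while WT 1 had 2 and WT 2 had 9. The region at 3018220 to 3019604 (1385 bp) was called in all 6 libraries, with the authors' score at 228 and 304 in the DKO libraries, 541 and 446 in the Tet2KO libraries and 74.2 and 262 in WT libraries. The other one in all 6 lay at 3021972 to 3023986 (2015 bp) and scored 188 and 219 in DKO, 444 and 342 in Tet2KO and 58.6 and 177 in WT. The widest, at 3024272 to 3027919 (3648 bp), scored 418 and 199 in the Tet2KO libraries and 92.3 in WT 2 and was called in no DKO library and not in WT 1. The regions at 3003852 to 3006072 (2221 bp; scores 213 and 127) and 3015139 to 3016489 (1351 bp; scores 134 and 67.9) were called in the Tet2KO libraries only.

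In the 8 regions called in both DKO and both Tet2KO libraries, both Tet2KO scores were above both DKO scores. These regions are neighbours in 1 block of the same libraries, so they do not count as separate repeats of the difference. They were picked after their values were seen, and how often this order held elsewhere was not tested. The median score in the 8 regions was 101 and 142 in the DKO libraries, 320 and 231 in the Tet2KO libraries, and 0 (2 of 8 called) and 115 in WT libraries. Scores of different libraries are not known to be on 1 scale. Taken over the whole first 100 kb of chromosome 9, coverage averaged 17.2% in Tet2KO and 7.56% in WT (limma on the arcsine of the square root of coverage, difference 0.161, unadjusted p = 0.0133, adjusted p = 0.300 over 13476 bins). It was 8.83% in DKO and 17.2% in Tet2KO (difference -0.126, limma, unadjusted p = 0.0369, adjusted p = 0.567), and 8.83% in DKO and 7.56% in WT (limma, adjusted p = 0.855). For 5mC it was 14.0% in DKO and 13.6% in WT (limma, adjusted p = 1.00). None passed. The 5hmC libraries also differ in total peak number, and the part of this in the block was not tested. In bulk cells, fewer cells of a type with the mark and less mark per cell cannot be told apart.

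**Figure D4:**
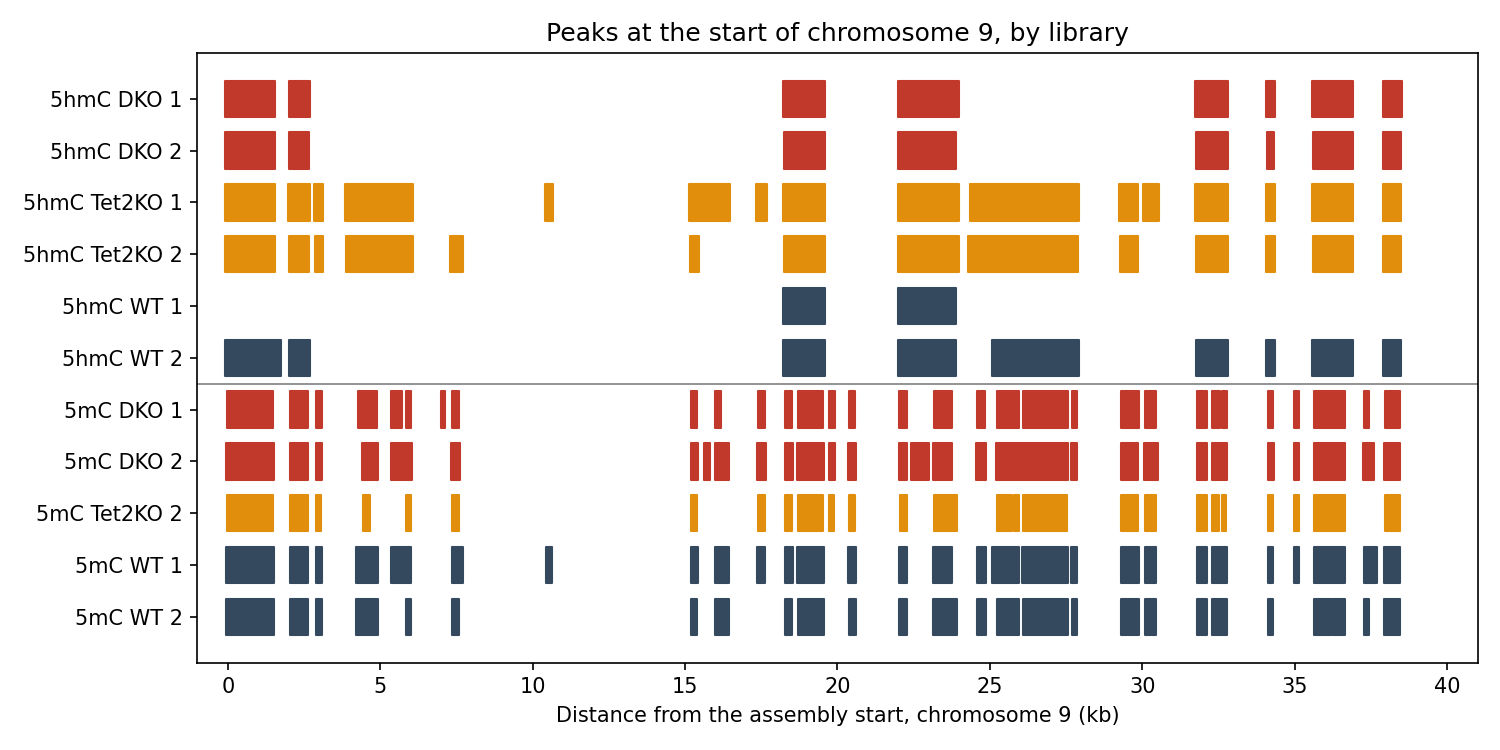
Peaks of each 5hmC and 5mC library over the start of chromosome 9, by distance from the assembly start (kb). Tet2KO libraries have peaks in 13 shared regions, WT 1 in 2, and both marks end within 38.6 kb.

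Peaks of this block had nearly the same ends in different libraries. Between pairs of 5hmC libraries, both ends lay within 20 bp in a median of 84.6% of the regions called in both (50% to 100% over 15 pairs with 2 to 13 regions). The same held in 3.91% of the other regions of the first 2 Mb and in 3.83% of the regions of the rest of the autosomes. For 5mC it was 78.6% (71.4% to 88.2% over 10 pairs), against 9.93% and 8.71%. The offsets of the starts repeated within a library. Measured from Tet2KO 1, peaks of DKO 1 started 4 bp later in 7 of 8 regions, those of DKO 2 14 bp later in 7 of 8, those of Tet2KO 2 12 bp later in 12 of 13, and those of WT 2 6 bp later in 7 of 9. The ends repeated less often. The end lay inward by the same distance as the start in 5 of 8 regions of DKO 1 (-4 bp), 3 of 8 of DKO 2 (-14 bp), 9 of 13 of Tet2KO 2 (-12 bp) and 3 of 9 of WT 2 (-6 bp). WT 1 started 8 bp later in 2 of 2 regions, and its ends shared no offset. For 5mC, measured from DKO 2, the commonest start offset held in 15 of 23 regions of DKO 1, 16 of 21 of Tet2KO, 16 of 25 of WT 1 and 14 of 22 of WT 2.

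The genotypes were then compared over the whole first 2 Mb. The share of a library's autosomal 5hmC coverage that lay there was 1.42% in both DKO libraries, 1.43% and 1.41% in the Tet2KO libraries and 1.36% and 1.37% in WT libraries. All 4 knockout libraries were above both WT libraries, by 0.0572 percentage points in the mean (exact permutation p = 0.0667, the smallest of 15 splits; adjusted p = 0.108; n = 4 and 2). Tet2KO differed from WT by 0.0576 points and DKO by 0.0568 points (exact permutation p = 0.333 each, the smallest that 2 against 2 allows; adjusted p = 0.394). DKO and Tet2KO differed by -0.000854 points, which turned to 0.00990 without chromosome 9 and to 0.00962 without Tet2KO 1. The 5mC share was 1.30% and 1.23% in DKO and 1.28% and 1.28% in WT (difference -0.0107 points; exact permutation p = 1), and 1.25% in the Tet2KO library; without DKO 2 the difference was 0.0221.

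**Figure D5:**
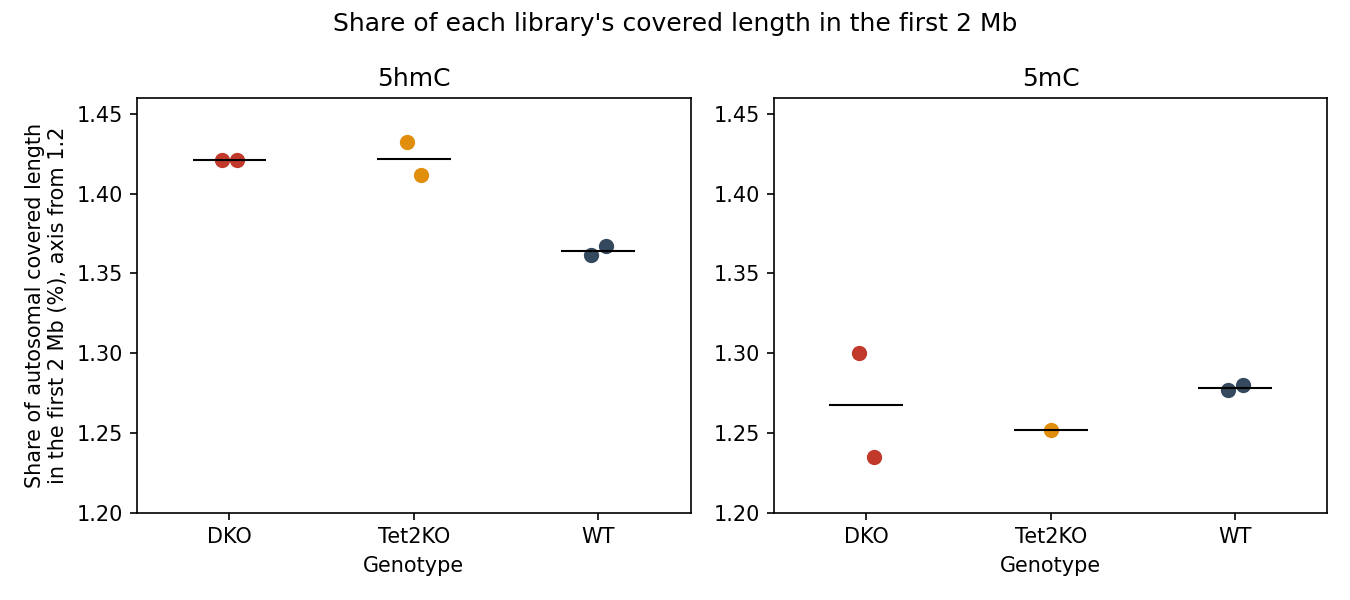
Share of each library's autosomal peak coverage that lies in the first 2 Mb (percent), by genotype, for 5hmC and 5mC; the axis does not start at 0. The 4 knockout 5hmC libraries (1.41% to 1.43%) lie above both WT libraries (1.36% and 1.37%), while the 5mC libraries of DKO and WT overlap.

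Single regions were called in 1 genotype and not in another about as often as elsewhere. Lost means here that the first-named genotype had no peak in either library and the other had one in both, and gained means the reverse. In Tet2KO against WT, 92 members were lost (3.07%, against 3.27% of all 5hmC regions) and 99 gained (3.30%, against 3.42%). In DKO against WT, 94 were lost (3.14%, against 3.3%) and 141 gained (4.70%, against 4.18%). In DKO against Tet2KO, 60 were lost (2.00%, against 2.21%) and 90 gained (3.002%, against 2.81%). For 5mC in DKO against WT, 52 were lost (1.93%, against 2.37%) and 58 gained (2.16%, against 2.53%). With all deposited peaks, these shares lie near the background. Among peaks scoring 100 or more, 5.87% of members were gained in Tet2KO against WT, against 3.95% of all regions, and 1.84% were lost, against 3.06%. The calls lean on each library: leaving out any 1 library of a compared genotype, which then asks for fewer libraries, raised the shares to at most 13.3%, against 13.2% of all regions in the same setting.

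The 3 widest lost and gained members of each comparison follow, first for Tet2KO against WT. Its lost regions at chromosome 12, 4870603 to 4872304 (1702 bp wide) and on chromosome 2 from 4409344 to 4410852 (1509 bp wide) had peaks in both DKO and both WT libraries. The third, chromosome 19, 3433687 to 3435046, had a peak in DKO 2. Its gained regions were the pair on chromosome 9 at 3003852 and 3015139 given above and chromosome 19, 3846956 to 3848229, which DKO 2 shared.

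In DKO against WT, the lost regions at chromosome 17, 4726132 to 4727692 and chromosome 7, 3604062 to 3605392 had a peak in Tet2KO 2, and that at chromosome 17, 4226799 to 4228059 had one in both Tet2KO libraries. The gained regions at chromosome 2, 4219107 to 4220515, chromosome 8, 3260395 to 3261720 and chromosome 11, 3265783 to 3267026 each had a peak in 1 Tet2KO library. In DKO against Tet2KO, all 3 lost regions lay on chromosome 9, at 3024272, 3003852 and 3015139. The gained ones were those on chromosomes 12 and 2 that Tet2KO had lost against WT, and chromosome 10, 3216199 to 3217482. On chromosome 9, 8 of 22 5hmC members were lost in DKO against Tet2KO, of which 5 lay in the first 100 kb. The share was 2.00% over all 5hmC members and 2.21% over all 5hmC regions. Chromosome 19 had the highest count, 10 of 394. Chromosome 9 was singled out after its values were seen.

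For 5mC in DKO against WT, the lost regions lay on chromosome 13, 3372144 to 3372979 (836 bp), chromosome 19, 4462648 to 4463174, and chromosome 8, 4838213 to 4838657. The gained ones lay on chromosome 11, 4954297 to 4955099 (803 bp), chromosome 19, 4714672 to 4715261, and chromosome 7, 3424140 to 3424652. The Tet2KO library had a peak in 4 of these 6, all but the regions on chromosomes 13 and 7.

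Coverage in 100 kb bins was also fitted with limma over all libraries of a mark. No bin passed the adjusted threshold of 0.05 in any comparison, among members or in the genome (0% of 13476 5hmC bins and of 20403 5mC bins). Of 218 member bins, 21 had an unadjusted p under 0.05 in Tet2KO against WT (9.63%, against 12.9% of all bins). Of these, 9 were higher (4.13%, against 3.84% of all bins) and 12 lower (5.50%, against 9.05%), and coverage differed from WT by -0.394 points in the member bins, against -0.778 over all bins. In DKO against WT it was 15 bins (6.88%, against 8.24%), 11 higher (5.05%, against 4.39%) and 4 lower (1.83%, against 3.86%). In DKO against Tet2KO it was 20 (9.17%, against 8.45%), 16 higher (7.34%, against 6.22%) and 4 lower (1.83%, against 2.23%). For 5mC it was 11 of 311 (3.54%, against 4.61%), 4 higher (1.29%, against 1.99%) and 7 lower (2.25%, against 2.63%). Without 1 library, the mean 5hmC difference of DKO against WT ran from -0.0260 to 0.258 points in the member bins. Over all bins it ran from -0.348 to -0.0295 points.

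The balance of higher and lower bins was not stable. For Tet2KO against WT it was 15 higher and 5 lower of 178 member bins among peaks scoring 100 or more (510 and 633 of all 10684 bins). The mean difference there was 0.152 points (-0.434 over all bins). Among peaks scoring 200 or more it was 13 and 3 of 117 member bins (488 and 342 of all 7237 bins), with 0.0549 points (-0.171 over all bins). For DKO against WT it was 18 and 2 of 178 member bins at a score of 100 or more (697 and 282 of all 10684 bins). With equal numbers of top peaks the mean difference was -0.0662 points (-0.371 over all bins). Without DKO 1 the mean difference was -0.0260 points (-0.348 over all bins), and without DKO 2 it was 0.258 points (-0.0295 over all bins). For DKO against Tet2KO it was 3 higher and 3 lower of 117 member bins at 200 or more (397 and 176 of all 7237 bins). For 5mC it was 8 and 4 of 249 member bins at 100 or more (339 and 415 of all 16498 bins). At 200 or more it was 6 and 1 of 171 (231 and 268 of all 11856 bins). With equal numbers of top peaks it was 8 and 5 of 308 (322 and 469 of all 19885 bins). The mean 5mC difference was -0.0913 points without DKO 1 (-0.0443 over all bins) and -0.00439 points without WT 1 (0.00937 over all bins). Without WT 2 it was -0.0247 points (-0.0202 over all bins).

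The 5 member bins of smallest unadjusted p in each comparison show the size of the differences. In Tet2KO against WT the first was chromosome 7, 4800001 to 4900000, with 9.07% and 7.25% coverage in DKO, 6.39% and 6.74% in Tet2KO and 10.5% and 10.8% in WT (limma, adjusted p = 0.299). The next was higher in Tet2KO: chromosome 18, 4700001 to 4800000 had 3.28% and 3.77% in DKO, 3.68% and 5.49% in Tet2KO and 1.94% and 1.87% in WT (limma, adjusted p = 0.299). Chromosome 11, 4100001 to 4200000 was covered to 41.5% and 38.8% in the DKO libraries, 33.7% and 30.4% in the Tet2KO libraries and 38.0% and 42.0% in WT libraries, with Tet2KO below both other genotypes (limma, adjusted p = 0.300 against WT). The first 100 kb of chromosome 9, given above, and chromosome 11, 4000001 to 4100000 (10.2% in Tet2KO, 14.5% in WT) complete the 5.

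In DKO against WT, neither DKO library had a peak in the first pair of bins. These were chromosome 6, 3400001 to 3500000, with 0.387% and 1.5% in Tet2KO and 0.753% and 0.925% in WT, and chromosome 9, 4300001 to 4400000, with 1.36% and 1.69% in Tet2KO and 1.08% and 0.340% in WT. The others had 1.28% in DKO and 0.134% in WT (chromosome 4, 3300001 to 3400000), 15.8% and 11.1% (DKO and WT, chromosome 16, 4500001 to 4600000), and 2.80% and 5.23% (DKO and WT, chromosome 19, 4900001 to 5000000). All 5 had an adjusted p of 0.540 in limma.

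In DKO against Tet2KO the same bins of chromosomes 9 and 6 and the bin of chromosome 11 at 4100001 were among the 5. The other ones were higher in DKO: chromosome 17, 4800001 to 4900000 averaged 6.55% in DKO and 3.29% in Tet2KO, and chromosome 6, 3900001 to 4000000 averaged 3.01% in DKO and 0.936% in Tet2KO. All 5 had an adjusted p of 0.533 in limma. For 5mC in DKO against WT, the bins were chromosome 10, 4300001 to 4400000 (0% in DKO, 0.334% in WT), chromosome 7, 4400001 to 4500000 (8.77% in DKO, 6.31% in WT), chromosome 12, 3400001 to 3500000 (0.893% in DKO, 0.332% in WT), chromosome 2, 3400001 to 3500000 (0.624% in DKO, 0.084% in WT) and chromosome 12, 4600001 to 4700000 (1.12% in DKO, 2.17% in WT). Their adjusted p was 0.943 in limma.

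The widest 5hmC region of the first 2 Mb lay on chromosome 2 at 3652353 to 3662022 (9670 bp) with peaks in all 6 libraries, and the single-library region on chromosome 11 given above came next (7535 bp). A region of 7145 bp on chromosome 5 (3459992 to 3467136) and others of 6588 bp (4141764 to 4148351) and 5875 bp (4294687 to 4300561) on chromosome 19 followed, each in all 6 libraries. The mean score was highest, at 1581, for the region 3901986 to 3905444 of chromosome 19. It was 1387 for 4417379 to 4419728 of chromosome 16 and 1349 for 4962087 to 4965222 of chromosome 11. The widest 5mC regions were on chromosome 7 at 4980400 to 4983819 (3420 bp), in all 5 libraries, and on chromosome 11 at 3091586 to 3094402 (2817 bp), in all but DKO 2. They were followed by 2714 bp on chromosome 6 (4696650 to 4699363), 2500 bp in the block of chromosome 9 (3025067 to 3027566) and 2326 bp on chromosome 11 (3049418 to 3051743), each in all 5. The 5mC regions on chromosome 16 at 4935091 to 4935972 and chromosome 7 at 4944579 to 4946903 and 4980400 to 4983819 scored 3100 in all 5 libraries. This value is shared by 114 to 179 peaks of each 5mC list and is not its highest, since 8 to 21 peaks per list scored above it.

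A smaller share of 5hmC regions lay on 5mC than elsewhere, and an equal share of 5mC regions on 5hmC. Of 2998 5hmC regions, 763 (25.5%) overlapped a 5mC region, against 29.4% of those elsewhere on the autosomes. Of 2688 5mC regions, 877 (32.6%) overlapped 5hmC, against 32.6%. Per library, 12.1% and 11.5% of the 5hmC peaks in DKO, 11.7% and 11.8% in Tet2KO and 14.7% and 13.9% in WT lay on 5mC regions called in all 5 libraries, against 13.7% and 12.7% (DKO), 12.6% and 12.2% (Tet2KO) and 16.2% and 15.1% (WT) of the peaks elsewhere. The difference was -1.16 points ± 0.461 (SD, n = 6; exact sign-flip p = 0.03125, adjusted p = 0.0813), lower in 6 of 6 libraries. With a score of at least 100 it was -0.00427 points (exact sign-flip p = 1), and with at least 200 it was 3.11 points (exact sign-flip p = 0.03125, the smallest possible), in the opposite direction.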

How the data were processed

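The deposited data are 1 peak list per library, and each peak has a chromosome, start, end and the authors' score, of which the lowest was 50. The submitters' processing notes name MACS 1.4.2, Bowtie 0.12.9, CASAVA 1.4, TopHat2 2.0.8, Cuffdiff 2.2.1 and mm9 without their roles. Nothing used here gives a control library or the read depth. The members and lists were chosen with earlier results of these data known.

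Covered length was counted once per base and library, with positions in mm9 counted from 1. Ratios, shares and widths were tested by exact two-sided sign-flip or permutation tests over libraries, with Benjamini-Hochberg adjustment over 13 tests. Bins of 100 kb entered where 2 or more libraries had a peak, and their covered fractions were arcsine transformed and fitted with limma 3.58.1 in R 4.3.3; other steps used Python 3.11.15. On simulated 5hmC data for DKO against WT (13476 bins, 200 changed), limma recovered 25% of changes of 0.1 on the arcsine scale and 100% of changes of 0.2, with 0 and 9 false calls. All simulated bins had the same spread, while real bins differ in spread, so recovery in the real data may be lower. Named were, per mark, the 5 widest regions and the 3 of highest mean score, the chromosomes with the most and least coverage, and, per comparison, the 3 widest lost and gained members and the 5 member bins of smallest p; some chromosomes and the regions of the chromosome 9 start were added after their values were seen. The Tet2KO 5mC library is numbered 2 in its title and 1 in the name of its list, and the title was followed. Alternatives were score minimums of 100 and 200, other windows, the last 2 Mb, chromosome 9 or the first 100 kb left out, each library left out and a replicate block.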

Additional observations from a re-analysis of the deposited data

Results flagged for a closer look

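The single Tet2KO 5mC library entered no genotype test. Its peaks covered 14.7 kb of the first 100 kb of the 18 autosomes other than chromosome 9, which was above both WT libraries (13.0 and 14.1 kb) and above both DKO libraries (14.6 and 11.9 kb). It was picked out because it exceeds the WT values, and the difference has no replicate check.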

How the results depend on the processing

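Of 236 alternatives over 29 results, leaving out single libraries aside, 194 were kept, 22 moved, 9 lost the threshold and 11 reversed. The cause was not tested. A tested value was kept if it had the same direction and the same side of an unadjusted p of 0.05. Lost and gained shares were kept if inside the 95% interval of the main setting, and bin counts if of similar size. Where the smallest possible p lay above 0.05, the side of the threshold could not change. Density of the first 2 Mb kept its direction for both marks in every setting. With scores of at least 100, the 5hmC width difference was -0.0230, the 5hmC difference from the last 2 Mb 0.0591, the 5hmC against 5mC difference 0.0483, the peaks on constant 5mC -0.00427 points and the 5mC share 0.00752 points. Lost and gained members were then 1.84% and 5.87% for Tet2KO against WT (3.06% and 3.95% of all regions) and 2.19% and 6.44% for DKO against WT (3.20% and 5.53%), and 1.63% were gained for 5mC (2.13%). With at least 200, the values were -0.0235 for 5hmC width, 0.0174 for 5mC width, -0.12 for 5hmC against 5mC, 0.0377 points for the 5mC share and 3.11 points for peaks on 5mC; 5.50% were gained for Tet2KO against WT (4.71% of all regions), 2.09% lost and 8.16% gained for DKO against WT (2.80% and 7.36%), 1.52% lost for DKO against Tet2KO (1.84%) and 0.916% lost for 5mC (1.89%). With the window to 4000000, the 5hmC width was -0.0153 and the 5mC value against the last 1 Mb 0.13; with the window to 7000000, the 5hmC width was -0.0137, the 5hmC value against the last 4 Mb -0.51 and the peaks on 5mC -0.145 points. The DKO minus Tet2KO share was 0.00990 without chromosome 9, 0.0122 without the first 100 kb and 0.0348 by peak number. With at least 0.5 of a region covered, 4.14% were lost for Tet2KO against WT (4.54% of all regions) and 3.70% gained for DKO against Tet2KO (3.66%); with at least 0.5 of the peak on 5mC the difference was -0.202 points; by mean width 5mC gave 0.0268.

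Bins with an unadjusted p under 0.05 numbered 12, 6, 9 and 2 (Tet2KO against WT, DKO against WT, DKO against Tet2KO, 5mC DKO against WT) with a mean coverage of at least 0.05 (12.1%, 6.06%, 9.09% and 7.69% of member bins, against 18.3%, 7.96%, 10.2% and 4.69% of all bins), and 7, 1, 6 and 1 in 1 Mb bins (21.2%, 3.03%, 18.2% and 2.63%, against 22.9%, 9.20%, 14.2% and 3.52%); with scores of at least 200 they were 6 for DKO against Tet2KO (5.13%, against 7.92%) and 7 for 5mC (4.09%, against 4.21%).

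Leaving out 1 library gave -0.18 to -0.16 for 5hmC density, -0.0400 to -0.0323 for its width, 0.0546 to 0.0715 against the last 2 Mb (exact p 0.0625 throughout, the smallest for 5 libraries) and -1.73 to -1.06 points for peaks on 5mC. The share of DKO minus Tet2KO was -0.0113 to 0.00962 and of 5mC -0.0436 to 0.0221. Lost and gained shares were 3.21% to 9.50% and 3.42% to 12.7% (Tet2KO against WT), 3.29% to 9.63% and 5.00% to 12.6% (DKO against WT), 2.05% to 10.8% and 3.07% to 10.3% (DKO against Tet2KO), and 2.03% to 11.9% and 2.35% to 13.3% (5mC). Over all regions the same settings gave 3.36% to 9.84% and 3.51% to 12.9%, 3.48% to 10.4% and 4.44% to 12.2%, 2.28% to 11.2% and 2.93% to 9.81%, and 2.53% to 12.01% and 2.70% to 13.2%. Unadjusted bins were 11 to 30, 8 to 25, 9 to 33 and 11 to 25.

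Bin coverage showed no pairing of libraries by replicate number (correlations over bins of 0.0378, 0.0412, -0.0142 and -0.0562). Whether libraries of the same number share an animal or a batch cannot be told from this. With a replicate block the shares stayed at 0.0576, 0.0568, -0.000854, 0.0572 and -0.0107 points (exact p 0.5, 0.5, 1, 0.111 and 1). The member bins with an unadjusted p under 0.05 in limma were then 19, 15, 19 and 12. These were 8.72%, 6.88%, 8.72% and 3.86% of member bins, against 12.8%, 7.72%, 8.04% and 3.56% of all bins. Unknown read depth limits all coverage values.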
